A study of Mus musculus with 12 samples.

Results

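The genes examined were 10 receptors with tyrosine kinase activity: the epidermal growth factor receptor family Egfr, Erbb2, Erbb3 and Erbb4, the fibroblast growth factor receptors Fgfr1, Fgfr2 and Fgfr3, the insulin-like growth factor receptor Igf1r, the neurotrophin receptor Ntrk2 and the collagen receptor Ddr1. Their regions were every peak that the authors' annotation assigned to one of these names, 440 of the 269580 peaks in 6 lists. All 10 genes held a peak in at least 1 library, as did 23433 genes in all. The peaks mark H4K8ac, acetylation of lysine 8 on histone H4, a modification found at active promoters and enhancers. It was mapped by chromatin immunoprecipitation and sequencing in oligodendrocyte progenitor cells (OPCs), glia that divide and can mature into the oligodendrocytes that make myelin.

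Cells of both ages came from the forebrain of PdgfrαH2BEGFP mice, in which a histone-fused green fluorescent protein reports Pdgfra, a gene that OPCs express. No other allele and no treatment is given for either group. The neonatal group was sorted at postnatal day 5 and the adult group at postnatal day 60, with 3 biological replicate libraries each, and 6 input libraries were not analysed here. The labels name no second sorting marker, no sex and no number of animals per library.

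Receptor tyrosine kinases cross the cell membrane, and binding of a ligand outside the cell lets their kinase domains phosphorylate each other. Adaptor proteins then carry the signal to the Ras and MAP kinase cascade and to phosphoinositide kinases, and feedback inhibitors damp it. In the oligodendrocyte lineage, fibroblast and insulin-like growth factors are known for acting on progenitor proliferation and survival, and neuregulins signal through the ErbB3 and ErbB4 proteins.

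The sequences just upstream of 3 of the genes are shown because the peaks lay over them in different libraries. RefSeq windows on GRCm38.p6 were matched for 8 of the 10 genes (12 windows), and Erbb3 and Fgfr1 are named only. Each sequence is the 250 bases before an annotated start, 5′ to 3′ on the strand of the gene, with GC boxes (GGGCGG or its reverse complement CCGCCC) in capitals. The Igf1r window lies at chr7:67952007-67952256 on the plus strand, the Fgfr2 window at chr7:130266809-130267058 on the minus strand, and the Egfr window at chr11:16751953-16752202 on the plus strand.
Igf1r: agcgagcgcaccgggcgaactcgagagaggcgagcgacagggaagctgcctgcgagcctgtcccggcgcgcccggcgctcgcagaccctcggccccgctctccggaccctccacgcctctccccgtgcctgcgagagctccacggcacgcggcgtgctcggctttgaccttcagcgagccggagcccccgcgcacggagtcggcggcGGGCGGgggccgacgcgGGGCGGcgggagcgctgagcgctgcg
Fgfr2: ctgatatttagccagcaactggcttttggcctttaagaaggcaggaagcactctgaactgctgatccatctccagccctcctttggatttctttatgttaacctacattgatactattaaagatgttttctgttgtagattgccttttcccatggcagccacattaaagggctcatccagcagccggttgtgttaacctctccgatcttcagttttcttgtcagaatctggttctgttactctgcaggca
Egfr: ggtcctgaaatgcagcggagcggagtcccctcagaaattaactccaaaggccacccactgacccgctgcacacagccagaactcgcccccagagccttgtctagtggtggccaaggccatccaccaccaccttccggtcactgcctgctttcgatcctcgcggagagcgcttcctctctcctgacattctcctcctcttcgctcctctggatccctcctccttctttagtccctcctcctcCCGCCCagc
The Igf1r window was 77.6% G and C with 42 CpG dinucleotides and 2 GC boxes, and a peak overlapped it in 3 neonatal and 3 adult libraries. The Fgfr2 window was 44% G and C with 2 CpG dinucleotides and no GC box, and a peak overlapped it in 2 adult libraries and no neonatal library. The Egfr window was 60.8% G and C with 11 CpG dinucleotides and 1 GC box, and only neonatal replicate 2 had a peak there. Over all 32851 windows of that length, the median was 52.4% G and C and 6 CpG dinucleotides, and 32.7% held a GC box. A match to these letters describes the window and is not a measured binding site.

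The libraries differed in how much was called. The neonatal lists held between 7353 and 31189 peaks over 2.33 to 13.7 Mb, with neonatal replicate 2 far above the other two, and the adult lists held between 72278 and 77002 peaks over 41.9 to 60.9 Mb. No read totals were used here, so the part of depth or of immunoprecipitation efficiency in these numbers was not tested. In bulk chromatin, fewer cells carrying a mark and less of the mark per cell cannot be told apart. Of 8 OPC marker genes, 7 or 8 had a promoter peak in each neonatal library and 6 to 8 in each adult library. Their summed promoter lengths were 3.29 to 22.8 kb in the neonatal and 37.0 to 54.4 kb in the adult libraries. Of 8 markers of myelinating oligodendrocytes, 1 to 3 had one in the neonatal libraries and 8 in every adult library, with summed promoter lengths of 0.435 to 3.26 kb and 51.6 to 81.5 kb. Of 8 markers each, neurons had 0 to 5 with a promoter peak in the neonatal and 3 to 5 in the adult libraries, and astrocytes 1 to 6 and 2 to 5. Microglia had 0 and 1 of 8, and endothelial and mural cells 0 to 1 and 1. No promoter peak in any library was found for 7 of the 8 microglia markers (all but Cx3cr1) and 6 of the 8 endothelial and mural markers, but only for Snap25 and Stmn2 of the neuron markers and Aqp4 of the astrocyte markers.

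The 10 receptor genes held more peaks in the adult libraries, most of them inside genes. Peaks assigned to them numbered 15, 39 and 7 in the neonatal libraries (replicates 1, 2 and 3, the order used throughout) and 116, 134 and 129 in the adult libraries. Fgfr2 alone held 224 of the 440, and without it the numbers were 13, 36 and 7 against 49, 59 and 52. Every adult library held more receptor peaks than every neonatal library, with or without Fgfr2, but the adult lists were longer too. The whole lists held 9097, 31189 and 7353 neonatal and 72278, 72661 and 77002 adult peaks. As shares of these lists, the receptor peaks overlapped between the ages. Without Fgfr2 that share was lower in every adult than in every neonatal library. Promoter peaks, which the authors' annotation places near a transcription start, numbered 15, 25 and 7 in the neonatal and 38, 44 and 39 in the adult libraries. Without Fgfr2 the promoter peaks numbered 13, 23 and 7 against 18, 21 and 13, and the ages overlapped, so Fgfr2 carried the difference in this class. Intronic peaks numbered 0, 11 and 0 against 66, 78 and 74. Distal intergenic peaks were few at both ages, 0, 3 and 0 against 6, 6 and 10. Intronic peaks of the receptors were absent from neonatal replicates 1 and 3 and present in each adult library, whereas promoter peaks were present in all 6 libraries. The lists as a whole shifted the same way: promoter peaks made up 85.2%, 67.5% and 88.8% of all peaks in the neonatal and 43.9%, 43.1% and 40.4% in the adult libraries.

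Most of the genes had a promoter peak at both ages. In neonatal replicates 1, 2 and 3, 7, 10 and 5 of the 10 genes had a promoter peak, and in each adult library 9 of 10 had one. Over all genes, 18548 had a promoter peak in any library. Of these, 6383, 13700 and 5629 had one in the neonatal and 15511, 15117 and 15488 in the adult libraries. For some of the receptors the length under the peaks differed. The covered length, the sum of the widths of the peaks assigned to a gene, was greater in every adult than in every neonatal library for 5 of the 10 genes: Erbb3, Erbb4, Fgfr2, Igf1r and Ddr1. The same held for 60.0% of the 23433 genes, so the count in the receptors lay near the background. For promoter peaks the same 5 genes separated, against 60.1% of genes with a promoter peak. For intronic peaks 4 of the 5 receptors that had any separated, Fgfr1, Fgfr2, Igf1r and Ddr1, against 49.6%. For distal intergenic peaks 2 of 6 did, Fgfr2 and Ddr1, against 47.1%. None of the 10 genes was higher in every neonatal library, as 0.303% of genes were.

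The median difference in covered length, adult minus neonatal mean, was 2.15 kb over the 10 genes and 0.661 kb over all genes. With 3 libraries against 3, the exact two-sided permutation test can give no p below 0.1, and no receptor could pass 0.05. After Benjamini-Hochberg adjustment over all genes, the 5 separated receptors had p = 0.166 by that exact test for all peaks. Neonatal replicate 2 set the overlap of the groups for the other genes: without it, 9 of the 10 genes were higher in every adult library, all but Egfr, against 74.6% of all genes. When each list was limited to its 7353 peaks of highest fold enrichment, the receptors held 12, 7 and 7 neonatal and 10, 10 and 10 adult peaks. Erbb3, Fgfr2, Igf1r and Ddr1, 4 of 8 receptors with a peak left, remained higher in every adult library, against 27.3% of genes. None was higher in every neonatal library, against 4.12%. Fgfr1, Fgfr3 and Ntrk2 kept peaks in neonatal libraries only. These were 2, 0 and 2 for Fgfr1, 0, 2 and 1 for Fgfr3, and 1, 0 and 1 for Ntrk2. For intronic peaks that limit left 1 receptor, Fgfr2, higher in every adult library in place of 4, and for distal intergenic peaks 0 in place of 2.

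**Figure D1:**
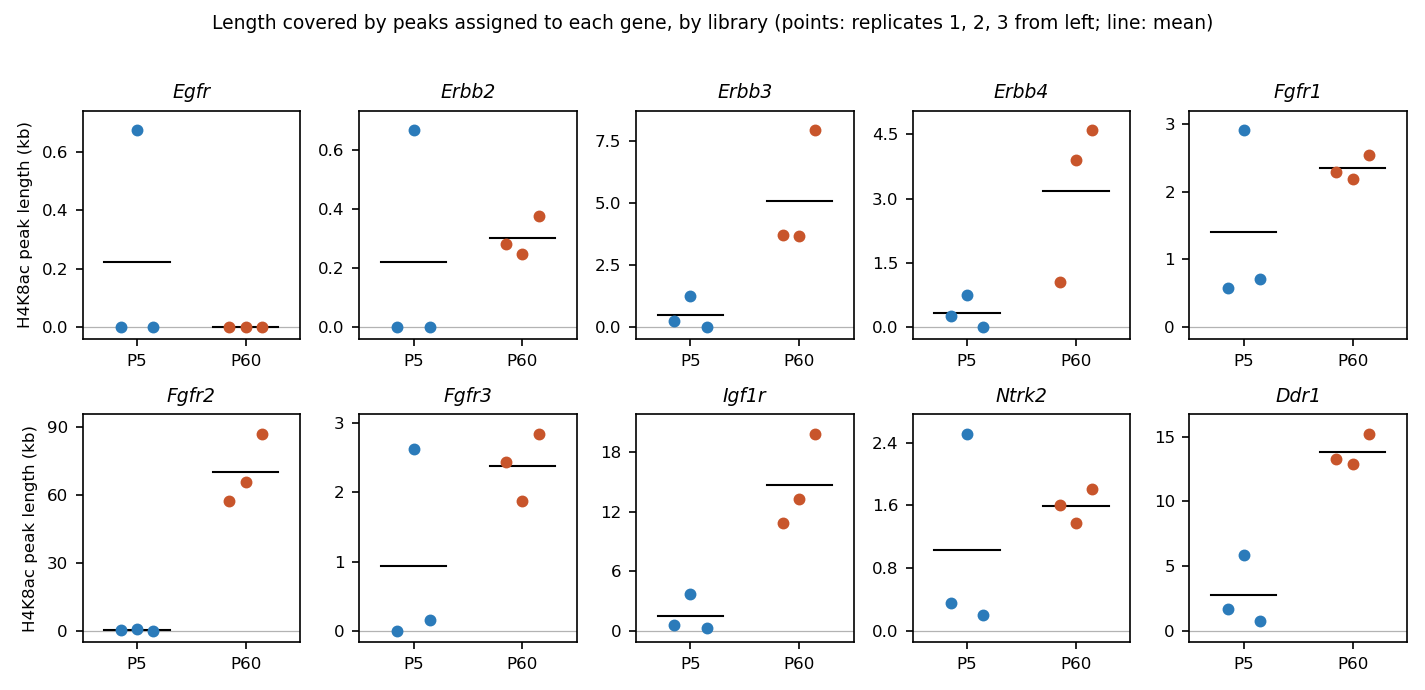
Length in kb covered by the H4K8ac peaks assigned to each of the 10 genes (vertical axis, a separate scale per panel), with 1 point per library at P5 (blue, neonatal) and P60 (orange, adult) and a line at the mean of 3. The points of the ages do not overlap in Erbb3, Erbb4, Fgfr2, Igf1r and Ddr1, and in Egfr, Erbb2, Fgfr1, Fgfr3 and Ntrk2 neonatal replicate 2 lies at or above an adult library.

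Among the epidermal growth factor receptor family, Erbb3 and Erbb4, which bind neuregulins, had longer peaks in adult cells, while Egfr and Erbb2 had little H4K8ac at either age. Erbb3 (chr10:128567523-128589635, minus strand) had 0.255, 1.23 and 0 kb under peaks in the neonatal and 3.68, 3.67 and 7.91 kb in the adult libraries. Every peak assigned to Erbb3 was a promoter peak. All adult values lay above all neonatal ones, with means of 0.496 ± 0.651 kb and 5.09 ± 2.44 kb (SD, n = 3 each; exact permutation p = 0.1). The adult peak began about 1 kb upstream of the start, and in adult replicate 3 it ran as 1 peak of 7911 bp to 6.95 kb inside the gene. The strongest Erbb3 peak had a fold enrichment, as the authors' peak lists give it, of 4.12 and 5.07 in neonatal replicates 1 and 2 and of 21.0, 15.0 and 11.5 in the adult libraries. By position, 4, 3 and 3 adult peaks overlapped the gene, and 3, 1 and 2 of them carried the name Mir6917. In neonatal replicate 2 it was 1 of 3. Peaks of any name covered 27.4%, 26.7% and 33.3% of Erbb3 in the adult and 0%, 5.45% and 0% in the neonatal libraries.

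Erbb4 (chr1:68031884-69108576, minus strand) had 0.265, 0.752 and 0 kb in the neonatal and 1.06, 3.90 and 4.59 kb in the adult libraries. The groups did not overlap, although adult replicate 1 lay close to neonatal replicate 2 (means 0.339 ± 0.381 kb and 3.18 ± 1.87 kb, SD, n = 3 each). Its peaks sat at the promoter except for 2 distal peaks of adult replicate 3, about 10 kb upstream. The authors' assignment leaves most of the H4K8ac inside this gene out of these values: 20, 18 and 30 adult peaks lay within the annotated Erbb4 gene, and 19, 17 and 29 of them carried the name of another gene, such as the predicted genes Gm16076 and Gm37061. Counted by position, peaks covered 0.0387%, 0.0698% and 0% of Erbb4 in the neonatal and 0.690%, 0.802% and 1.56% in the adult libraries. Even so, the covered share in the adult libraries stayed below 1.6% of this 1077 kb gene, near the median of long genes in the same libraries (1.02%, 0.988% and 1.304%, over 4941 protein-coding genes of at least 50 kb).

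Erbb2, the coreceptor that binds no ligand of its own, had 0, 0.666 and 0 kb in the neonatal and 0.282, 0.247 and 0.376 kb in the adult libraries. The groups overlapped through neonatal replicate 2, and each adult library held a single promoter peak of 247 to 376 bp. Egfr, whose protein binds epidermal growth factor and transforming growth factor alpha, had 0, 0.675 and 0 kb in the neonatal libraries and 0 in every adult library. In neonatal replicate 2 a peak of 424 bp overlapped the start and one of 251 bp lay 0.321 kb inside the gene, with folds of 3.98 and 3.54 in the authors' list. Egfr was the only one of the 10 genes with no peak of its own in an adult library, and no peak of an adult library lay within the gene under another name. In neonatal replicate 2, 4 peaks overlapped the gene by position, and 2 of them carried the name Egfros.

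Of the fibroblast growth factor receptors, Fgfr2 separated the ages in covered length, and Fgfr1 and Fgfr3 did not. Fgfr2 (chr7:130162451-130266808, minus strand) had 0.48, 0.675 and 0 kb in the neonatal and 57.3, 65.9 and 87.1 kb in the adult libraries. The neonatal values were under 1 kb in all libraries and the adult values lay above 57 kb, so the groups were far apart (means 0.385 ± 0.347 kb and 70.1 ± 15.3 kb, SD, n = 3 each; exact permutation p = 0.1). The number of peaks was 2, 3 and 0 against 67, 75 and 77. By class, adult promoter peaks of Fgfr2 covered 16.2, 19.0 and 36.1 kb, intronic peaks 33.2, 33.0 and 28.4 kb, and distal intergenic peaks 0.322, 0.158 and 0.573 kb. Neonatal promoter peaks of Fgfr2 covered 0.48, 0.508 and 0 kb. Peaks that the authors' annotation numbers as intron 2, 3, 4 or 7 were found in all adult libraries. Those numbered intron 2 lay both inside the gene and upstream of the RefSeq start. The only intronic neonatal peak, 167 bp in replicate 2, was also numbered intron 2. It lay outside the RefSeq gene and reached 6.83 kb upstream of the start.

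Adult peaks were wide and closely spaced over the 5′ part of Fgfr2. Peaks covered 47.0%, 52.3% and 70.0% of the 104.4 kb gene in the adult libraries and 0.172%, 0.487% and 0% in the neonatal ones. Among the 4941 long protein-coding genes, Fgfr2 ranked 18, 16 and 11 by this share in adult replicates 1, 2 and 3. The widest single peaks measured 7980, 11576 and 15130 bp. Much of what the annotation calls promoter lay deep in the gene: 19 of 20, 21 of 23 and 24 of 25 in-gene promoter peaks in adult replicates 1 to 3 were more than 3 kb downstream of the RefSeq start, near starts of shorter annotated transcripts. Upstream, 8, 18 and 23 adult peaks reached 40.03, 43.54 and 43.56 kb from the start and were classed as intronic, within a longer annotated transcript. In neonatal replicate 1 and adult replicate 3, 1 promoter peak each stood 2857 kb upstream at the start of such a long transcript, and neonatal replicate 1 had 0.179 kb in the gene besides it. The markers of myelinating oligodendrocytes given above moved with Fgfr2, and likewise with Erbb3, Erbb4, Igf1r and Ddr1. Their summed promoter lengths were at most 3.26 kb in the neonatal and at least 51.6 kb in the adult libraries. Those of the OPC markers moved the same way, with at most 22.8 kb against at least 37.0 kb. In covered length, 60.0% of all genes were likewise higher in every adult library. The part of the cell types behind these markers in the results was not tested.

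**Figure D2:**
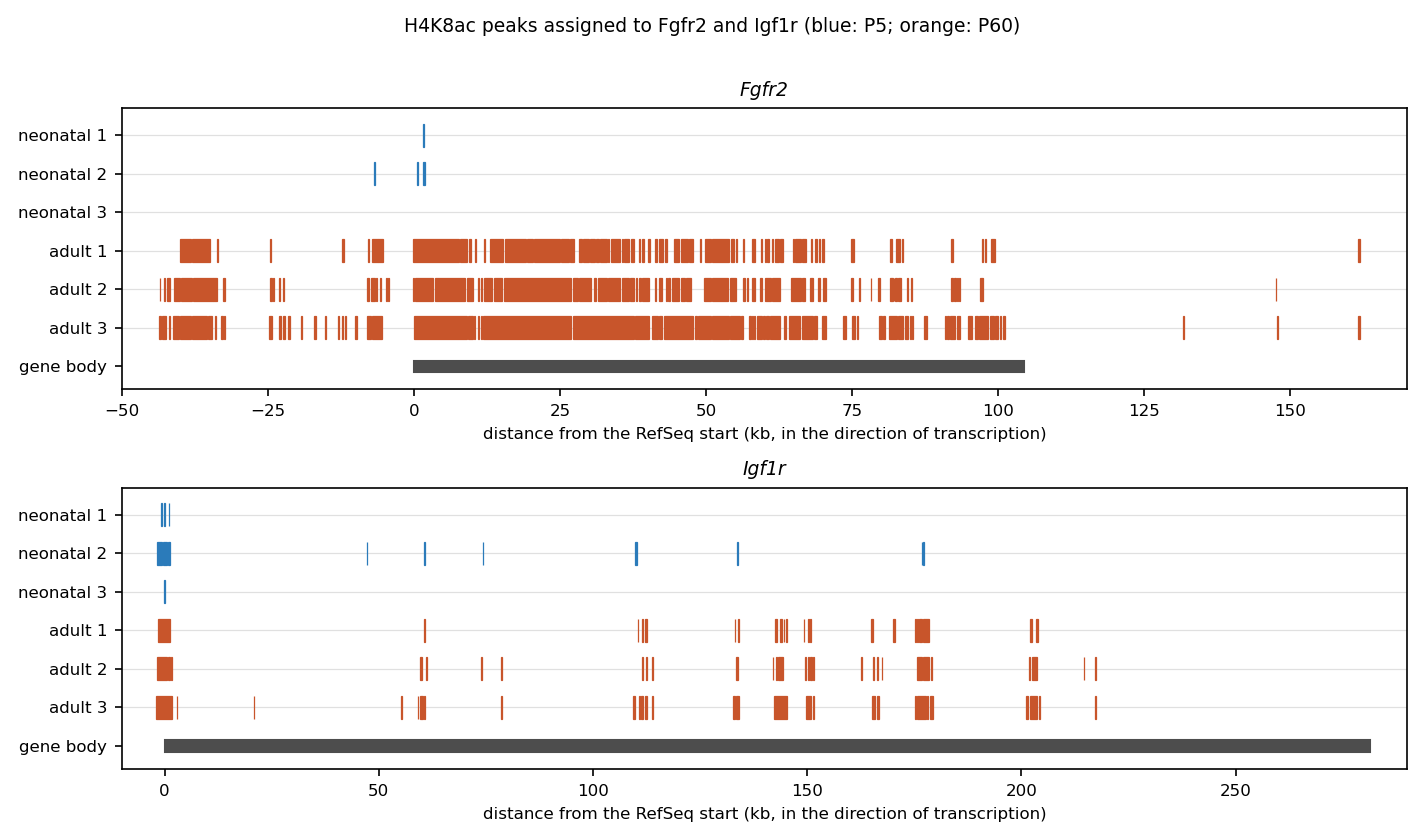
Positions of peaks assigned to Fgfr2 (top) and Igf1r (bottom) in each library, as distance in kb from the RefSeq start along the direction of transcription, with 1 row per library (blue P5, orange P60) and the annotated gene as a dark bar; peaks 2857 kb upstream of Fgfr2 are outside the plotted range. Adult peaks fill the first part of Fgfr2 and reach about 43.6 kb upstream, while Igf1r has a peak at the start in all 6 libraries and separate intronic peaks.

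Fgfr1, with the smallest difference of the 3, had 0.572, 2.90 and 0.717 kb in the neonatal and 2.30, 2.19 and 2.53 kb in the adult libraries. The groups overlapped because neonatal replicate 2 exceeded all adult libraries (means 1.40 ± 1.31 kb and 2.34 ± 0.176 kb, SD, n = 3 each; exact permutation p = 0.4). At the RefSeq start, from 1 kb upstream to 2 kb downstream, a peak was present in all 6 libraries, with 383, 969 and 318 bp in the neonatal and 1046, 986 and 1029 bp in the adult ones. There the adult lengths lay above the neonatal ones, narrowly so for neonatal replicate 2. A peak in intron 3, about 18 kb inside the gene, was found in every adult library and in neonatal replicate 2. A further 0, 3 and 0 neonatal and 1, 1 and 2 adult peaks within the gene were assigned to Gm16159. Peaks of any name covered 0.672%, 4.48% and 0.558% of Fgfr1 in the neonatal and 4.26%, 3.71% and 6.06% in the adult libraries. An upstream region, 2 to 6 kb before the start, showed the opposite order: it held a peak of 189, 1018 and 399 bp in neonatal replicates 1, 2 and 3 and none in any adult library. That region was picked out after its values were seen. An annotated alternative start of Fgfr1 lies 5.11 kb upstream of the RefSeq start.

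Fgfr3 had 0, 2.63 and 0.159 kb in the neonatal and 2.44, 1.87 and 2.85 kb in the adult libraries. Neonatal replicate 2 lay within the adult range, so the groups overlapped (means 0.930 ± 1.48 kb and 2.39 ± 0.490 kb, SD, n = 3 each; exact permutation p = 0.3). Each adult library had promoter peaks of Fgfr3 over the first 2.2 kb of the gene and a distal peak about 17 kb upstream. Neonatal replicate 2 also had promoter peaks and a distal peak of 659 bp, about 16 kb upstream. It overlapped a further peak of adult replicate 3 only, and the adult peaks about 17 kb upstream overlapped no neonatal peak.

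Igf1r (chr7:67952257-68233668, plus strand), which binds insulin-like growth factors, kept a promoter peak at both ages and added intronic peaks in adults. Its covered length was 0.555, 3.71 and 0.298 kb in the neonatal and 10.9, 13.3 and 19.9 kb in the adult libraries, without overlap (means 1.52 ± 1.90 kb and 14.7 ± 4.65 kb, SD, n = 3 each; exact permutation p = 0.1). Promoter peaks covered 0.555, 2.38 and 0.298 kb against 2.93, 3.14 and 3.84 kb, so neonatal replicate 2 came near the lowest adult library there. Intronic peaks covered 0, 1.33 and 0 kb against 7.96, 10.2 and 16.0 kb. All but a few of the intronic peaks lay in intron 2, which held 21, 25 and 24 peaks in the adult libraries and 6 in neonatal replicate 2. The cluster about 175 to 179 kb inside the gene was marked in all adult libraries, and neonatal replicate 2 had a peak there too. Peaks covered 3.31%, 4.10% and 6.39% of the 281.4 kb gene in the adult libraries, above the median of long genes but far from the share in Fgfr2.

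Ntrk2 encodes TrkB, the receptor for brain-derived neurotrophic factor. It had 0.355, 2.51 and 0.201 kb in the neonatal and 1.61, 1.37 and 1.81 kb in the adult libraries. Neonatal replicate 2 was the highest of the 6, and the groups overlapped (means 1.02 ± 1.29 kb and 1.60 ± 0.221 kb, SD, n = 3 each; exact permutation p = 0.4). Its peaks were promoter peaks within 3.6 kb of the start, apart from an intronic peak of 171 bp in adult replicate 3. A further 6, 1 and 4 adult peaks within the gene were assigned to Gm34245 or 4930415C11Rik, and 1, 7 and 0 neonatal ones.

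Ddr1 (chr17:35681567-35704741, minus strand), whose protein binds collagen, was covered over much of its short gene. It had 1.70, 5.84 and 0.759 kb in the neonatal and 13.2, 12.9 and 15.2 kb in the adult libraries. All adult libraries exceeded all neonatal ones by a wide margin (means 2.77 ± 2.70 kb and 13.8 ± 1.26 kb, SD, n = 3 each; exact permutation p = 0.1). Promoter peaks made up most of it, with 1.70, 5.69 and 0.759 kb against 11.0, 9.83 and 11.7 kb. The number of peaks differed less (4, 4 and 2 against 15, 14 and 10), because adult peaks were wide: the widest measured 5182, 4177 and 6855 bp. Intronic peaks covered 0.371, 0.5 and 0.67 kb and distal peaks 12 to 17 kb upstream 0.925, 0.932 and 0.522 kb in the adult libraries. Of these, the neonatal libraries had only a distal peak of 148 bp in replicate 2. By position, peaks covered 43.3%, 45.3% and 54.0% of Ddr1 in the adult and 8.31%, 23.4% and 3.28% in the neonatal libraries.

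**Figure D3:**
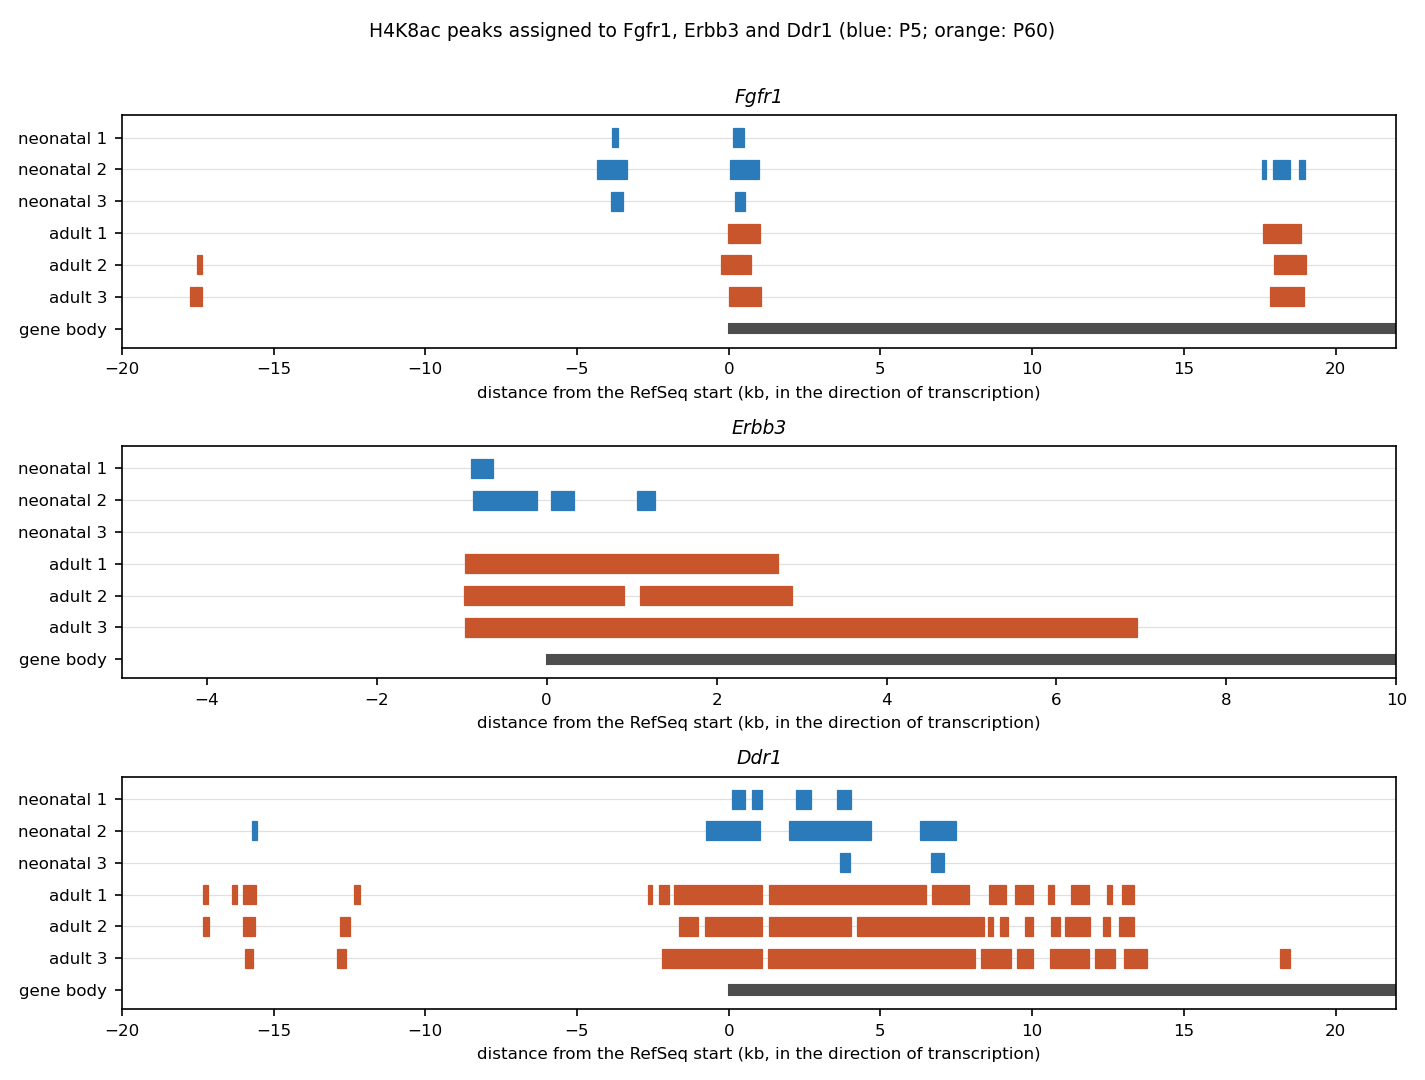
Positions of peaks assigned to Fgfr1, Erbb3 and Ddr1 in each library, as distance in kb from the RefSeq start along the direction of transcription (blue P5, orange P60; dark bar, annotated gene). Fgfr1 has a peak about 4 kb upstream in the 3 neonatal libraries only, and the Erbb3 and Ddr1 peaks cover more of the region in each adult library than in any neonatal one.

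The authors' deposited table of sites that differ between the ages gave a second reading of the same libraries. It lists 43888 sites with a log2 fold change and an adjusted p-value below 0.05, and no values per library. The table names no direction. Positive values were read as higher in adult cells, because between 85.0% and 96.7% of positive sites overlapped a peak of each adult library and between 10.3% and 27.8% a peak of each neonatal library. A site higher in adult cells was listed for 6 receptors in the authors' deposited table, Erbb3, Erbb4, Fgfr2, Fgfr3, Igf1r and Ddr1, against 65.0% of all genes. One receptor, Fgfr1, had a site higher in neonatal cells, against 0.977% of genes. Egfr, Erbb2 and Ntrk2 had no assigned site. Of the 64 receptor sites in the authors' deposited table, 63 were higher in adult cells, beside 43634 of all 43888.

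In the authors' deposited table Fgfr2 had 41 sites, all higher in adult cells, with log2 fold changes of 1.73 to 6.30 and a median of 3.43. Only 17 genes had more such sites, and the median gene with any had 2. The median over all sites of the authors' deposited table was 2.41, and 34 of the 41 Fgfr2 sites lay above it. By class the authors' deposited table has a median of 1.86 at promoters, 2.87 in introns and 2.78 in distal intergenic sites. In it Fgfr2 had 3.07 over its 13 promoter sites and 3.44 over its 24 intronic ones. All of these promoter sites but the one at the RefSeq start lay 39.2 to 99.0 kb inside the gene. Their median is therefore not a value for that start. The site with the largest value lay 40.6 kb upstream of the start (chr7:130307161-130307560, adjusted p = 2.88e-07 in the authors' deposited table). At the RefSeq start itself, 0.888 kb inside, the authors' deposited table gives 2.68 (adjusted p = 2.67e-10), lower than in most upstream sites.

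Igf1r had 12 sites in the authors' deposited table, from 1.53 to 4.44 with a median of 2.34. Its promoter site had 1.93 and overlapped a peak in all 6 libraries, and the other 11 sites were intronic. In the authors' deposited table Ddr1 had 7 sites from 1.36 to 4.97. The lowest of them was the promoter site at 0.802 kb, and the highest was the distal site 12.7 kb upstream. The sites that overlapped a neonatal peak had 1.93 and 2.41 in Igf1r and 1.36 and 1.90 in Ddr1 in the authors' deposited table, below the other Ddr1 sites and within the range of the other Igf1r sites. Erbb3 had 1 promoter site with a log2 fold change of 2.51, Erbb4 1 promoter site with 2.03 and Fgfr3 1 distal site with 1.94 in the authors' deposited table. When sites were instead given to a gene by position, Erbb4 had 14 sites, Erbb3 3, Erbb2 1 and Ntrk2 1 in the authors' deposited table, all higher in adult cells, most of them under the name of a neighbouring or overlapping gene. By position Fgfr2 had 29 in place of 41 and Ddr1 6 in place of 7. Fgfr3 and Fgfr1 had 0, since their sites lie more than 3000 bp outside the annotated genes, the limit used for position.

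The Fgfr1 site of the authors' deposited table (chr8:25514568-25514967) lay 3.99 kb upstream of the RefSeq start, in the region with peaks in the 3 neonatal libraries and no adult one. The authors' deposited table gives it a log2 value of -1.39, with an adjusted p of 0.0262. It was 1 of 254 negative values and the 163rd from the lowest among 43888. The table and the peak lists come from the same 6 libraries and are not independent of each other.

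**Figure D4:**
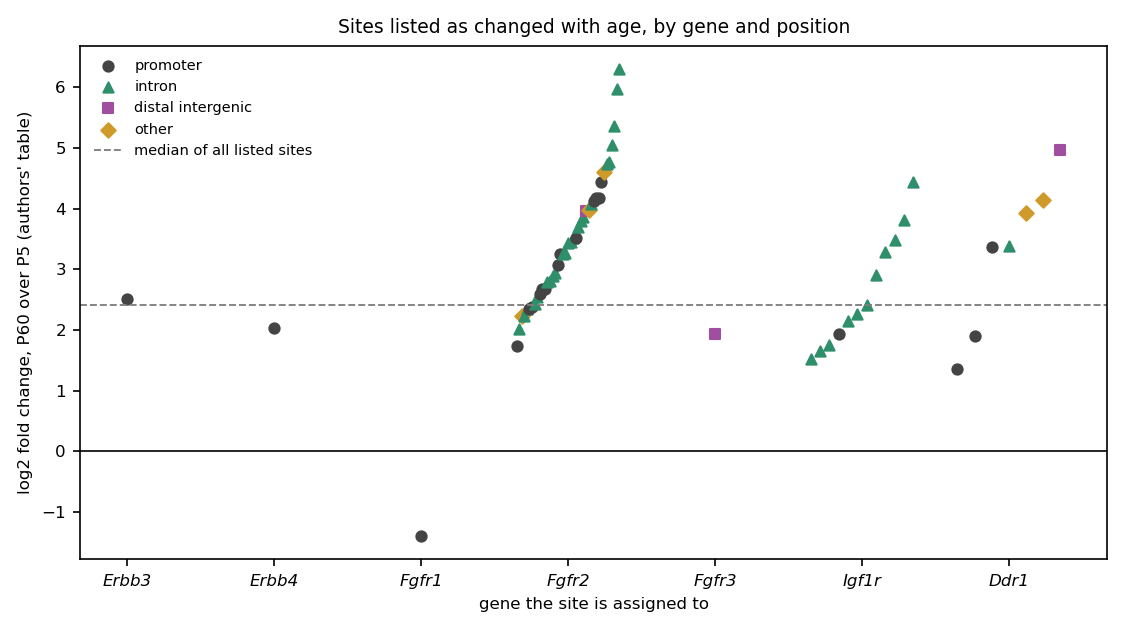
Log2 fold change, P60 over P5, of each site in the authors' deposited table (vertical axis) by the receptor gene it was assigned to, with symbols for the position class and a dashed line at 2.41, the median of all listed sites. Every receptor site lies above 0 except the Fgfr1 promoter site at -1.39, and Fgfr2 has the most sites and the highest values.

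Genes that act with these receptors were described from lists of ligands, other receptor tyrosine kinases, adaptors and signalling enzymes, and feedback inhibitors. As with the receptors, a gene was counted when every adult library exceeded every neonatal one in covered length, beside 60.0% of all genes. Of 14 ligand genes with a peak, 7 did so, and Ereg, Igf1, Bdnf and Ntf3 had none. Egf, the ligand of Egfr, had 0.186, 1.86 and 0.449 kb in the neonatal and 15.5, 18.7 and 27.4 kb in the adult libraries. Tgfa, another Egfr ligand, had 1.32, 2.83 and 0.597 kb against 12.9, 14.0 and 18.9 kb, and Fgf1, which binds fibroblast growth factor receptors, 0 against 5.75, 7.40 and 9.25 kb. These 3 ligand genes had the largest differences, and Nrg3 and Igf2 the smallest, with more in neonatal replicate 2 than in any adult library. The Egf and Tgfa lengths were spread over 24 to 31 and 18 to 23 peaks per adult library, whereas Egfr, the gene of their receptor, had no adult peak.

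Of 18 other receptor tyrosine kinase genes with a peak, 6 were higher in every adult library. Tyro3, a receptor that recognises Gas6 and protein S, had 0.219, 0.885 and 0.223 kb against 17.7, 19.96 and 21.7 kb. Fgfr4 had 0, 1.37 and 0.18 kb against 6.53, 6.20 and 9.58 kb, and the decoy-like receptor gene Fgfrl1 0.518, 2.62 and 0.292 kb against 5.69, 7.26 and 6.75 kb. Ror2 and Ddr2, with the smallest differences, were highest in neonatal replicate 2, and Ddr2, the second collagen receptor, had no adult peak. Ntrk3, the relative of Ntrk2 that binds another neurotrophin, had a neonatal-higher site with a log2 fold change of -1.29 in the authors' deposited table.

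Of 26 adaptor and signalling enzyme genes, all with a peak, 24 were higher in every adult library. Gab1, a docking protein of several receptors, had 0.555, 2.87 and 0 kb against 30.8, 34.0 and 44.2 kb. Pik3r1, the regulatory subunit of phosphoinositide 3-kinase, had 0.62, 4.001 and 1.301 kb against 13.3, 13.6 and 18.3 kb, and Plcg1, a phospholipase, 0.328, 1.25 and 0.332 kb against 5.82, 6.39 and 9.47 kb. Nras and Map2k1 differed least, by 0.4 and 0.0603 kb. Of 17 feedback inhibitor genes with a peak, 12 were higher in every adult library. Errfi1, an inhibitor of the Egfr family, had 0.32, 1.34 and 0.412 kb against 8.66, 8.23 and 13.1 kb, and Lrig3 and Spred1 followed. Spry4 and Dusp4 did not separate and had their highest value in neonatal replicate 2. These counts are descriptions beside the background of 60.0%, with no test of the lists.

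The genes most like Fgfr2 and Egfr, the receptors with the largest and the smallest log2 ratio of adult to neonatal covered length (7.18 and -1.70, with 100 bp added), were found by the distance between log2 covered lengths over the 6 libraries. Nearest to Fgfr2 were Elmo1, Kazn and Ncam1, at distances of 1.64, 1.82 and 1.89 in log2 units. Elmo1 had 0.907, 1.95 and 0 kb in the neonatal and 51.6, 61.6 and 102.5 kb in the adult libraries, Kazn 34.7 to 44.0 kb and Ncam1 37.6 to 63.1 kb in the adult ones. Nearest to Egfr were Ascl2, Pirt and Gm15984, each with 0.674 to 0.676 kb in neonatal replicate 2 and no peak in any other library.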

How the data were processed

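H4K8ac peaks of 3 neonatal and 3 adult mouse OPC libraries were analysed, and 6 inputs were not analysed here. Per the submitters' processing notes, which give no roles, the tools were Trim Galore, Bowtie2 2.4.5, SAMtools, deepTools, MACS2, DiffBind and ChIPseeker, with build GRCm38. Per the file headers, the authors deposited 1 list per library with each peak's fold enrichment (a linear ratio), −log10 p and q, a score and the nearest gene. Peaks in each list have q under 0.05, and input use in calling is not stated in the sources used here. The authors' deposited table of sites has no header, and its columns were read from the values as log2 fold changes, p-values and adjusted p-values.

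Peak starts were counted from 1. Covered length per gene and class was summed per library, and ages were compared by the exact two-sided permutation test over 20 arrangements, Benjamini-Hochberg adjusted over all genes with a peak of the class. A site took the gene and class of the peak sharing most bases with it. Calculations used Python 3.11.15, numpy 2.4.6, pandas 2.3.3, scipy 1.17.1 and matplotlib 3.10.9, and were tested on simulated data. Read depth is not in the files used here, so no interval on a value was derived from counts. RefSeq genes of GRCm38.p6 gave gene positions.

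The genes and lists were chosen with earlier results of these data known. Named were all 10 receptors, of each pathway list the 3 genes with the largest and 2 with the smallest difference in covered length, any gene separated in the opposite direction, and the 3 nearest genes to the receptors with the largest and smallest ratio. Some genes of the lists are counted but not reported by name here. Alternatives were a stricter q limit, equal numbers of peaks, numbers of peaks in place of length, assignment by position, a narrower promoter, each library left out and a replicate block.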

Additional observations from a re-analysis of the deposited data

How the results depend on the processing

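With each list limited to its 7353 peaks of highest fold, the number of receptors higher in every adult library fell from 4 to 1 for intronic peaks (Fgfr2) and from 2 to 0 for distal intergenic peaks. With the number of peaks in place of covered length it was 3 for all peaks (Fgfr2, Igf1r and Ddr1) and 1 for promoter peaks (Fgfr2), in place of 5 and 5. Leaving out 1 library at a time gave 5 to 9 receptors for all peaks, 5 to 9 for promoter peaks, 4 in each case for intronic and 2 to 3 for distal ones, and the 9 came without neonatal replicate 2. The 1 neonatal-higher site, in Fgfr1, gave 0 at an adjusted p under 0.005 and 0 by position, since it lies more than 3000 bp outside the annotated gene. The causes of these changes were not tested, apart from that position. By position, 6 receptors separated for promoter peaks, Fgfr1 in addition. Ranking by p-value instead of fold was added after seeing the data and gave 5 and 5. Of 52 alternative values in all, 44 stayed within 1.5 times the count.

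No pairing by the shared replicate numbers was seen: same-numbered deviations correlated at -0.06, 0.01 and 0.08 over 23433 genes. Differently numbered ones lay between -0.10 and 0.09. With 3 libraries per age, these values cannot decide whether the libraries were paired. With the replicate block, 5, 5, 4 and 2 receptors were higher in adult in every pair for all, promoter, intronic and distal peaks, and the smallest p was 0.25.

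Neonatal replicates 1 and 3 had the shortest lists, and a receptor without a listed peak there is not shown to lack the mark. Most adult peaks inside Erbb4 went to other genes.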
